A study of Rattus norvegicus with 18 samples.

Results

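NRK-52E cells, an established rat kidney line labelled as proximal tubule epithelium of the Osborne-Mendel strain, were compared after 24 h of chlorothalonil and after 6 h of vehicle. The comparison takes the 3 arrays titled as chlorothalonil at 24 h and the 3 titled as DMSO at 6 h, 6 of the 18 arrays of the study. Chlorothalonil is a chlorinated nitrile fungicide that reacts with thiols. It was given at 1.1 µM in 0.1% DMSO, the dose the labels call IC10 at 72 h, and the vehicle cells had DMSO alone. All cells were grown to confluence before dosing, in medium with 10% fetal calf serum, and all come from 1 cell line. The arrays of chlorothalonil at 6 h and of DMSO at 24 h, 3 each, are used beside them, and the titles number those of each group as biological replicates. The question is which genes of treated cells at 24 h had the level of vehicle cells at 6 h, and which differed from it.

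The pair differs in both treatment and time, so the difference of each gene is exactly the sum of 2 others: the change of vehicle cells between 6 h and 24 h, and the difference of treated from vehicle cells at 24 h. These comparisons share arrays, and their values are set side by side below without a test of likeness between them. Confluent cultures slow their division as contacts form, and medium that ages on the cells loses nutrients and serum lipids. Sterol and fatty acid synthesis genes are driven by SREBP factors when lipid supply falls, and genes of ribosome production follow growth signals. Electrophiles that bind thiols are known to free NRF2, which drives antioxidant genes, and HSF1, which drives chaperone genes.

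Among all 9149 genes tested, the 3 arrays within a group were correlated at 0.9916 to 0.9976. Treated arrays at 24 h were correlated with vehicle arrays at 6 h at 0.9487 to 0.955, against 0.9242 to 0.9414 with vehicle arrays at 24 h. Poly-A control transcripts, which are spiked into each RNA sample, had a mean log2 signal of 10.59 to 11.19 in treated arrays at 24 h and 9.916 to 10.09 in vehicle arrays at 6 h. The groups did not overlap, and scaling each array to these controls moved the median difference of all genes to −0.85 from 0.03. A log2 difference between 0 and about 0.88 therefore has the other sign on that scale, and its part in the results was not tested. Hybridization controls were lower in the second vehicle array at 6 h (10.35) than in the other arrays of these groups. Without that array 5419 genes were called, against 5661 with it. Of 10 measured markers of proximal tubule, 9 were at background in all 6 arrays, among them Lrp2, Cubn and Slc34a1, and Ggt1 was above it. Of 6 epithelial markers Krt8 and Tjp1 were above background, while Cdh1, Cdh16, Krt18 and Epcam were not. Of 6 fibroblast markers Col1a1 and Col3a1 were above background in both groups, while Pdgfra, Dcn, Lum and Thy1 were at background in all 6 arrays. The summed level of these 6 markers was 8.97 to 9.41 in treated arrays at 24 h and 9.63 to 9.77 in vehicle arrays at 6 h. The 6 distal nephron and the 3 measured endothelial markers were at background.

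Of the 9149 genes, 5661 (61.9%) differed, of which 3012 (32.9% of all) were higher and 2649 (29%) lower in treated cells at 24 h than in vehicle cells at 6 h at an adjusted p under 0.05 (limma with Benjamini-Hochberg adjustment). Those at least 2-fold higher numbered 661 (7.22%), and those at least 2-fold lower 461 (5.04%). The median log2 difference was 0.03, and the median half-width of its 95% interval was 0.21. Higher genes made up 53.2% of the calls on the deposited scale, 43.2% after centring each array on its median and 4.63% after scaling to the poly-A controls. A gene is described below as at the 6 h vehicle level when its 95% interval lay within 1.5-fold either way. This held for 4309 genes (47.1%) on the deposited scale and for 0 after poly-A scaling. The controls also vary within a group, with an SD of 0.30 in treated and 0.71 in vehicle arrays at 24 h. This spread widens every interval on that scale, so the 0 does not show that gene levels differ. The 1.5-fold limit against vehicle cells at 24 h held for 3556 genes (38.9%) on the deposited scale. Treated cells at 24 h thus differed from vehicle cells at 6 h by a median absolute log2 difference of 0.36, and from vehicle cells of their own time by 0.46. Counts in the gene lists below are to be read beside the shares of all genes, 32.9% higher, 29% lower and 47.1% within 1.5-fold. For counts of treated against vehicle cells at 24 h the shares are 39.1% higher, 31.1% lower and 38.9% within 1.5-fold.

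**Figure D1:**
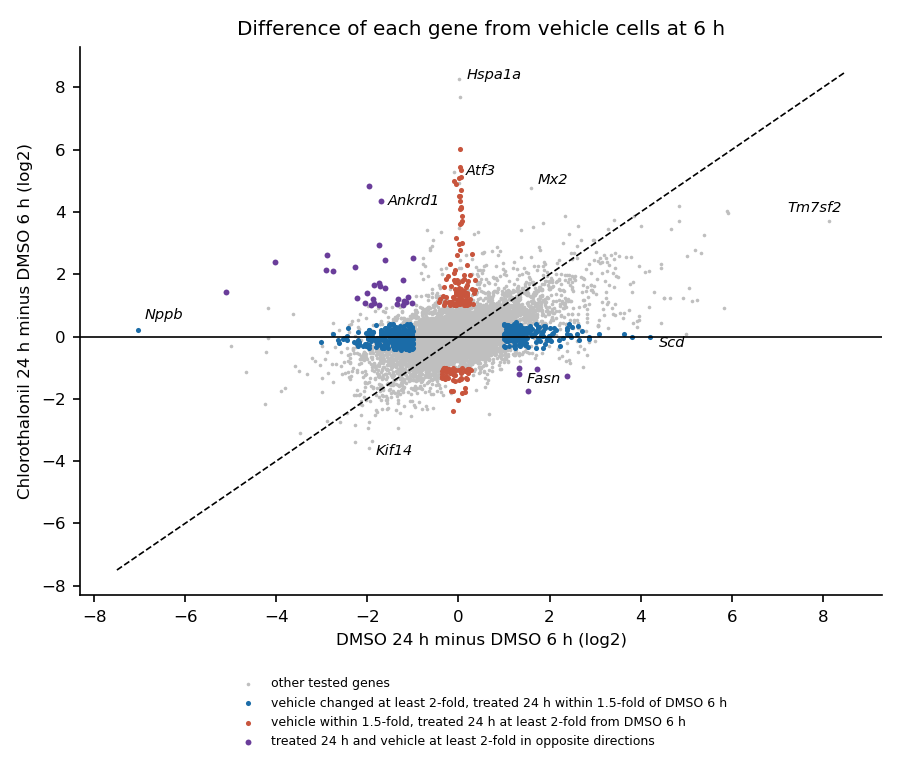
Log2 difference from vehicle cells at 6 h of each of 9149 tested genes, in chlorothalonil cells at 24 h (vertical) and in DMSO cells at 24 h (horizontal); both axes use the same 3 DMSO arrays of 6 h. Points on the solid line have the 6 h vehicle level in treated cells and points on the dashed line the 24 h vehicle level; Nppb and Scd lie on the solid line, Hspa1a and Atf3 at the top where the vehicle difference is near 0, and Kif14 below both lines.

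Vehicle cells changed at least 2-fold between 6 h and 24 h in 1036 genes that were higher (11.3% of all) and 1071 that were lower (11.7%) at 24 h. In treated cells at 24 h, 206 of the 1036 vehicle-raised genes (19.9%) and 335 of the 1071 vehicle-lowered genes (31.3%) were at the 6 h vehicle level. Both shares are below the 47.1% of all genes, which include the many that moved little in any group. By comparison, 136 of the vehicle-raised (13.1%) and 126 of the vehicle-lowered genes (11.8%) were within 1.5-fold of the 24 h vehicle level. Most common among vehicle-raised genes was a level between both vehicle times and called against each, in 415 genes (40.1%), and 325 of the vehicle-lowered genes (30.3%) had such a level. The median gene in treated cells had 44.8% of the vehicle change among raised genes and 29.8% among lowered genes. Of the 3319 genes that kept their level in vehicle cells, 2138 (64.4%) were within 1.5-fold in treated cells too, and 111 were at least 2-fold higher and 58 at least 2-fold lower.

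Vehicle-raised genes of lipid synthesis were nearer to the 6 h than to the 24 h vehicle level, in 16 of 16 cholesterol and 11 of 11 fatty acid synthesis genes. The same held for 568 of all 1036 vehicle-raised genes (54.8%). All 20 cholesterol genes tested were lower in treated than in vehicle cells at 24 h, with a median log2 difference of −1.89; of all genes 31.1% were called lower and 39.1% higher in that comparison. Against vehicle cells at 6 h the median was −0.34 (−1.22 with poly-A scaling), with 3 genes higher, 10 lower and 8 within 1.5-fold. Of all genes 32.9% were higher, 29% lower and 47.1% within 1.5-fold, which include the many that moved little in vehicle cells. Among the 16 vehicle-raised cholesterol genes 6 were within 1.5-fold, 3 called higher and 7 lower. Of all 1036 vehicle-raised genes 19.9% were within 1.5-fold. The median of these 16 genes had −9.1% of the vehicle change, against 44.8% among all vehicle-raised genes. Fdps, which makes farnesyl diphosphate, had log2 levels of 12.79, 12.66 and 12.58 in treated cells at 24 h, against 12.66, 12.59 and 12.75 in vehicle cells at 6 h. The arrays of both groups overlapped, while the vehicle arrays at 24 h were higher, at 13.84, 13.92 and 13.77. Its difference was 0.01 with a 95% interval of −0.17 to 0.19. Sqle, the squalene epoxidase, differed by −0.83 ± 0.08 (SE, n = 3 arrays each) from vehicle cells at 6 h, and was also below their 24 h level. Tm7sf2, a sterol reductase late in the pathway, went the other way from Sqle. It had 6.78, 7.27 and 7.16 in treated cells at 24 h and was at background in vehicle cells at 6 h, so it was at least 8.40-fold higher. All its treated arrays were still below the vehicle arrays at 24 h, which had 11.46, 11.60 and 11.41. Pmvk, the phosphomevalonate kinase, likewise lay between both vehicle times, with 10.30 ± 0.10 in treated cells at 24 h, against 11.84 ± 0.14 in vehicle cells at 24 h and 9.11 ± 0.10 in those at 6 h (SD, n = 3 each). With poly-A scaling its difference from the 6 h level was 0.31 and was not called.

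Of the 17 genes of fatty acid synthesis and desaturation, 10 were at the 6 h vehicle level, 7 were called higher and 4 lower. The median difference was 0.00 (−0.88 with poly-A scaling). Scd, the stearoyl-CoA desaturase, was the vehicle-raised gene at the 6 h level with the largest vehicle change among named genes. Its arrays read 2.39, 2.41 and 2.46 in treated cells at 24 h and 2.41, 2.45 and 2.41 in vehicle cells at 6 h, all at background, against 6.51, 6.73 and 6.62 in vehicle cells at 24 h. No fold between the first pair is given, since both are at background. Elovl5, a fatty acid elongase, had 11.74, 11.74 and 11.75 in treated cells at 24 h and 11.85, 11.75 and 11.77 in vehicle cells at 6 h. The vehicle cells at 24 h were higher, at 13.02, 12.90 and 12.92. Fasn, the fatty acid synthase, was below both vehicle levels. Treated cells at 24 h had 9.46, 9.57 and 9.52, against 10.62, 10.71 and 10.79 in vehicle cells at 6 h, a difference of −1.19 ± 0.08 (SE; adjusted p = 8.13e-09, limma), and vehicle cells at 24 h had 12.04 ± 0.05 (SD, n = 3). Acss2 and Fads2, an acetyl-CoA synthetase and a desaturase, were each higher by 1.24 than in vehicle cells at 6 h, and lower than in vehicle cells at 24 h by 3.27 and 3.41. With poly-A scaling neither was called higher than at 6 h, with a difference of 0.36 each.

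Outside lipid synthesis, vehicle-raised genes at the 6 h level included Scara5, Izumo4, Rnf157 and Sema3d. Scara5, a ferritin receptor, and Izumo4 were at background in treated cells at 24 h as in vehicle cells at 6 h. Sema3d, a secreted guidance protein, had 9.03, 8.96 and 8.81 in treated cells at 24 h and 9.19, 8.34 and 9.49 in vehicle cells at 6 h, so the treated arrays lay within the vehicle range; without the second vehicle array at 6 h its difference was −0.40 and passed the test. Vehicle cells at 24 h had 11.88 ± 0.13 (SD, n = 3), above every array of the other pair.

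Genes of ribosome production were at the 6 h vehicle level in most members. The 36 tested act in rRNA transcription, processing and subunit assembly, and 24 of them were within 1.5-fold, with 8 called higher and 9 lower. Their median difference from vehicle cells at 6 h was −0.08, and 0.01 without the third vehicle array at 6 h, so it has no settled sign. After median centring it was −0.18, with 6 called higher and 12 lower. With poly-A scaling it was −0.96, where the median of all genes was −0.85. All 36 were higher than in vehicle cells at 24 h, against 39.1% of all genes, with a median of 1.52. Of the 30 that fell at least 2-fold in vehicle cells, 20 were at the 6 h level, against 31.3% of all vehicle-lowered genes. Treated cells at 6 h were above that level by a median of 0.55, and treated cells at 24 h differed from those at 6 h by a median of −0.57. Rrp12, a factor of pre-ribosome export, had 9.42, 9.42 and 9.58 in treated cells at 24 h, against 9.67, 9.65 and 9.67 in vehicle cells at 6 h. The treated arrays were slightly lower without overlap, but the difference of −0.19 (95% interval −0.52 to 0.15) did not pass the test. Vehicle cells at 24 h had 6.65 ± 0.25 (SD, n = 3). Polr1b, a subunit of RNA polymerase I, was lower than in vehicle cells at 6 h by −0.79 ± 0.14, and Fbl, the rRNA methyltransferase of nucleoli, by −0.55 ± 0.08 (SE; limma adjusted p 2.19e-04 and 2.11e-05). Of 23 cytosolic ribosomal proteins tested, 22 were within 1.5-fold of both vehicle times.

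Cytosolic aminoacyl-tRNA synthetases, which charge tRNAs with amino acids, were within 1.5-fold of vehicle cells at 6 h in 12 of 19 genes and of vehicle cells at 24 h in 1. Against vehicle cells at 6 h, 3 were called higher and 8 lower, and 1 and 12 after median centring. Their median was −0.18 (−1.06 with poly-A scaling) against vehicle cells at 6 h and 0.96 against vehicle cells at 24 h. Hars1, the histidine enzyme, stood apart with 11.68, 11.70 and 11.66 in treated cells at 24 h, against 10.04, 10.19 and 9.78 in vehicle cells at 6 h, a difference of 1.68 ± 0.15 (SE). Genes of ATF4 and the amino acid response were higher in 8 and lower in 14 of 26 than in vehicle cells at 6 h, with a median of −0.42. The median in vehicle cells at 24 h against 6 h was −0.92. Against vehicle cells at 24 h, 20 were called higher and 4 lower in treated cells, with a median of 0.85. Ddit4, an inhibitor of mTORC1, was 7.45-fold higher (11.27 ± 0.17 in treated cells at 24 h, 8.37 ± 0.21 in vehicle cells at 6 h, SD, n = 3 each), and vehicle cells at 24 h had a similar level of 10.98 ± 0.14. Chac1, which degrades glutathione, was higher by 1.88 ± 0.09. Slc7a1, an arginine transporter, was lower by −1.19 ± 0.11, and Phgdh, the first enzyme of serine synthesis, by −0.93 ± 0.10 (SE).

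Nppb, which encodes the natriuretic peptide BNP, had the largest vehicle change of the genes at the 6 h level. Its log2 levels were 10.45, 10.30 and 10.39 in treated cells at 24 h and 10.05, 10.36 and 10.12 in vehicle cells at 6 h, with overlap of the groups. In vehicle cells at 24 h it was at background, at 3.22, 3.30 and 2.87. Treated cells at 6 h were above all of these, at 11.34, 11.58 and 11.40. Lgals9, a galectin, had 9.79 ± 0.05 in treated cells at 24 h, against 6.97 ± 0.36 in vehicle cells at 24 h and 9.71 ± 0.15 in vehicle cells at 6 h. Ubash3b, a phosphatase, differed from vehicle cells at 6 h by −0.21 (95% interval −0.57 to 0.15), and it was at background in vehicle cells at 24 h. Aen, a nuclease and p53 target, had 9.04 in treated cells at 24 h and 9.16 in vehicle cells at 6 h. A second probe set of Aen gave a higher level in treated cells, by 0.67, so its likeness rests on 1 probe set.

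**Figure D2:**
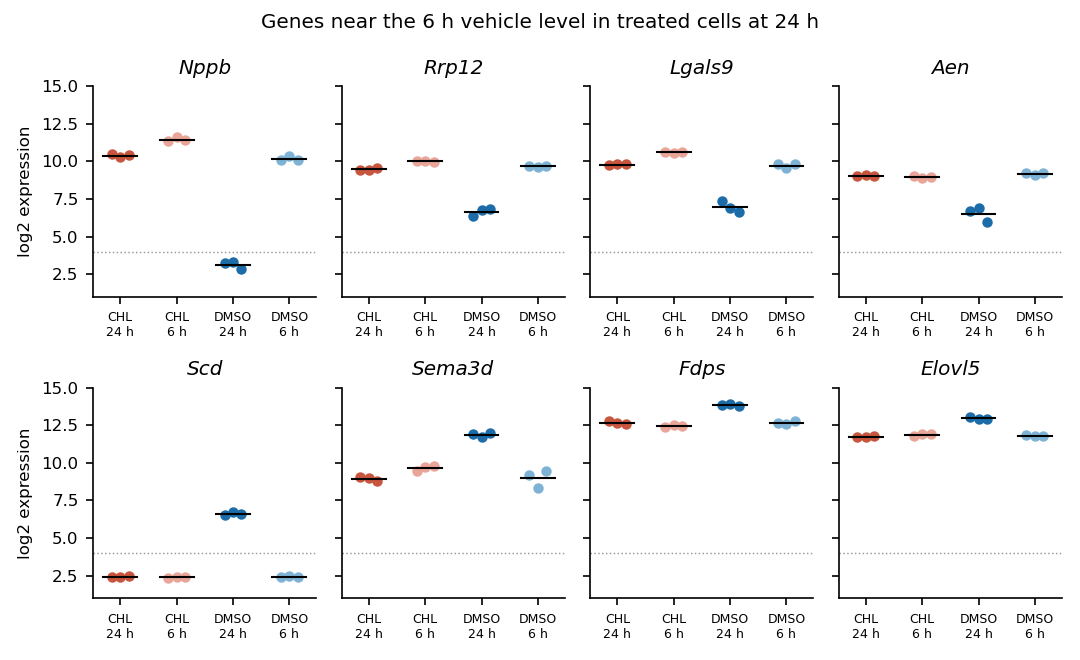
Log2 expression (vertical) of 8 genes in each array of chlorothalonil at 24 h, chlorothalonil at 6 h, DMSO at 24 h and DMSO at 6 h; bars are means of 3 arrays and the dotted line is the background limit of log2 4. In each panel the treated arrays at 24 h lie near the DMSO arrays at 6 h, and the DMSO arrays at 24 h lie below them for Nppb, Rrp12, Lgals9 and Aen and above them for Scd, Sema3d, Fdps and Elovl5.

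Genes of mitosis were lower in treated cells at 24 h than at either vehicle time in most members. Of 44 tested, 41 were lower than in vehicle cells at 6 h, 33 of them by at least 2-fold, with a median of −1.33. The median in vehicle cells at 24 h against 6 h was −0.74. Treated cells were called lower than vehicle cells at 24 h in 33 genes and higher in 4, against 31.1% and 39.1% of all genes. The promoters of Top2a and Cenpf are shown because both genes were lower than at both vehicle times and their windows hold both motifs marked below. They are RefSeq windows of assembly GRCr8 from 250 bases before to 50 after the annotated start, at chr10:84473044-84473343 and chr13:103760837-103761136, both on the minus strand. Capitals mark TTTGAA, the cell cycle genes homology region, and CCAAT, the CCAAT box, searched on both strands. No 2 marked sites overlap.
Top2a: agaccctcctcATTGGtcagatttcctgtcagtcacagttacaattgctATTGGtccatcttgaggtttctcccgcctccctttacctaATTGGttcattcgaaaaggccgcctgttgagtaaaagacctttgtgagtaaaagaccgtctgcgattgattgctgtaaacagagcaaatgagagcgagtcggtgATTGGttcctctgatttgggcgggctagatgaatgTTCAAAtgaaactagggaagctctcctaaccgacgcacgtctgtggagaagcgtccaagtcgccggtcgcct
Cenpf: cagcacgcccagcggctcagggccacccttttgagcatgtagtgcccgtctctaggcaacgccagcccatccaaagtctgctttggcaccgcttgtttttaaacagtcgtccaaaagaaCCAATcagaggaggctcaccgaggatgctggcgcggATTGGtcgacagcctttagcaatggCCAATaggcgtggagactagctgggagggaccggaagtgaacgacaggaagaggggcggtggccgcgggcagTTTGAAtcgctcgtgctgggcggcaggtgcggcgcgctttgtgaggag
TTTGAA lay in 27 of 39 mitosis promoters with a sequence (69.2%), against 18.07% of all 27457 promoters of that length, and CCAAT in 32 of 39 (82.1%), against 37.74%. The window of Cenpe, which was also lower than in vehicle cells at 6 h, holds CCAAT but not TTTGAA. A match is a description of these letters only.

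Top2a, the topoisomerase that untangles chromosomes, had 9.39, 9.29 and 9.59 in treated cells at 24 h, against 11.72, 11.86 and 11.71 in vehicle cells at 6 h. The groups lay far apart, with a difference of −2.34 ± 0.09 (SE; adjusted p = 3.19e-11, limma), while the vehicle arrays at 24 h had 10.94, 11.14 and 10.82. Cenpf, a kinetochore protein, kept its level in vehicle cells, with 10.91 ± 0.16 at 24 h. In treated cells at 24 h its arrays read 8.82, 8.46 and 8.67, against a mean of 11.04 ± 0.16 (SD, n = 3) in vehicle cells at 6 h (difference −2.39 ± 0.10, SE). Cenpe, a kinetochore motor, was 7.60-fold lower, and Mki67, the proliferation antigen Ki-67, 2.78-fold lower. Among the 10 named genes with the largest decrease, Kif14, a mitotic kinesin, came first with 4.11, 4.42 and 3.82 in treated cells at 24 h, against 7.73, 7.64 and 7.69 in vehicle cells at 6 h. Its difference was −3.57 ± 0.19 (SE; adjusted p = 7.32e-10, limma), and vehicle cells at 24 h were between, at 5.72 ± 0.39 (SD, n = 3). E2f7, a repressor of E2F targets, was 10.5-fold lower, Ccnf, the F-box protein cyclin F, 7.72-fold lower and Depdc1b 7.16-fold lower. Cdkn3, a phosphatase of cyclin-dependent kinases, was higher by 1.86 in vehicle cells at 24 h than at 6 h. Treated cells at 24 h were within 1.5-fold of vehicle cells at 6 h, and called lower than them by −0.37 ± 0.07 (SE; limma adjusted p = 3.75e-04).

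Genes of DNA replication were lower than in vehicle cells at 6 h and mostly higher than in vehicle cells at 24 h. Of 41 tested, 39 were lower than in vehicle cells at 6 h and 18 by at least 2-fold, with a median of −0.87. Against vehicle cells at 24 h, 26 were called higher and 6 lower (39.1% and 31.1% of all genes), with a median of 0.52. Chaf1a, a chromatin assembly factor, had 8.56, 8.15 and 8.32 in treated cells at 24 h, against 10.30, 10.23 and 10.13 in vehicle cells at 6 h. Its vehicle arrays at 24 h, at 7.83, 8.23 and 7.71, overlapped those of treated cells. Pole, the catalytic subunit of DNA polymerase epsilon, was below both vehicle times, with 5.81 ± 0.19 in treated cells at 24 h, against 6.57 ± 0.22 in vehicle cells at 24 h and 8.14 ± 0.16 in those at 6 h (SD, n = 3 each). Clspn, the checkpoint adaptor claspin, was 8.65-fold lower than in vehicle cells at 6 h, and its arrays overlapped the vehicle arrays at 24 h. Of 18 G1 cyclins, kinase inhibitors and E2F factors, 13 were lower and 1 higher, with a median of −0.82. The 1 higher was Cdkn1a, the inhibitor p21, at 12.57 ± 0.05 in treated cells at 24 h and 12.13 ± 0.10 in vehicle cells at 6 h, a difference of 0.43 (−0.45 with poly-A scaling). A second probe set of Cdkn1a differed by 1.28 on the deposited scale, so the size of its difference rests on the probe set used.

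**Figure D3:**
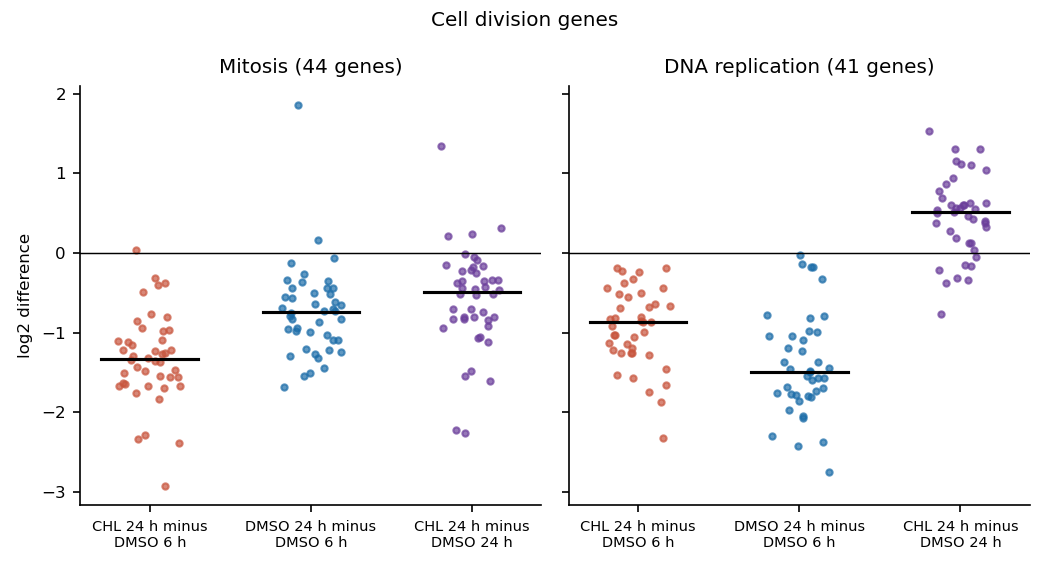
Log2 differences (vertical) of 44 mitosis and 41 DNA replication genes in chlorothalonil 24 h minus DMSO 6 h, DMSO 24 h minus DMSO 6 h and chlorothalonil 24 h minus DMSO 24 h; points are genes and bars are medians, and the comparisons share arrays. Mitosis genes have medians of −1.33, −0.74 and −0.49, and DNA replication genes of −0.87, −1.5 and 0.52.

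Chaperone genes included the largest increase among named genes. The promoters of Hsph1 and Hspb1 are shown because both genes were higher and their windows hold GAANNTTC, the core of the heat shock element, in capitals. They lie at chr12:10427118-10427417 on the plus strand and chr12:26432252-26432551 on the minus strand of GRCr8.
Hsph1: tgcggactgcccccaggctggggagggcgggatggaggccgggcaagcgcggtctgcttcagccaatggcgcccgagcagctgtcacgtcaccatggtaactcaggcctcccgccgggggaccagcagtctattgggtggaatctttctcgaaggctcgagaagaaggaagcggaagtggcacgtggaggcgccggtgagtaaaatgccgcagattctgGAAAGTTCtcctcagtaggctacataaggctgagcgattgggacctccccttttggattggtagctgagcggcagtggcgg
Hspb1: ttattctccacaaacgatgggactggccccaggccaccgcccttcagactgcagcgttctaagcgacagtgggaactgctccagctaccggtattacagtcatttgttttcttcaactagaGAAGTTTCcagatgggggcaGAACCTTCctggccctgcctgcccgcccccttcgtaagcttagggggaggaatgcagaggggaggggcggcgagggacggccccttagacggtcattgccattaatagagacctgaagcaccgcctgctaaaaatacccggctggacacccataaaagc
These letters, which read the same on both strands, lay in 13 of 24 heat shock promoters (54.2%), against 8.34% of all 27457. The window of Hspa1a holds none, which says only that these letters are not in it.

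Hspa1a, the inducible HSP70 chaperone, had log2 levels of 10.77, 10.09 and 10.11 in treated cells at 24 h, against 2.03, 2.06 and 2.09 in vehicle cells at 6 h. The vehicle arrays were at background at both times, so Hspa1a was at least 80.0-fold higher (adjusted p = 4.95e-11, limma). Treated cells at 6 h had 3.96, 4.99 and 3.81, close to the background limit. Hsph1, an HSP110 nucleotide exchange factor, had 13.89, 13.67 and 13.56 in treated cells at 24 h, against 11.49, 11.39 and 11.47 in vehicle cells at 6 h, 4.78-fold higher. Hspb1, the small heat shock protein HSP27, had 14.18, 14.27 and 14.08 in treated cells at 24 h and 12.28, 12.22 and 12.25 in vehicle cells at 6 h, 3.81-fold higher. Both groups of arrays were far apart in each gene. Of the 27 heat shock genes tested, 16 were higher, 3 lower (1 without the second vehicle array at 6 h or without the first or the second treated array, and 5 after median centring) and 12 within 1.5-fold, with a median of 0.35 (−0.53 with poly-A scaling). Fkbp4, a co-chaperone of HSP90, was lower by −0.38 ± 0.11 (SE), and by −0.27 without the first vehicle array at 6 h, which missed the test. Hspe1, the mitochondrial chaperonin HSP10, was at the 6 h vehicle level with 14.44 in treated cells at 24 h and 14.35 in vehicle cells at 6 h.

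Proteasome subunits, which degrade tagged proteins, were higher in 32 of 34 genes, by a median of 0.45 (−0.44 with poly-A scaling). Only Psmd3, a subunit of the regulatory cap, passed 2-fold, with 11.86, 11.75 and 11.69 in treated cells at 24 h, against 10.67, 10.59 and 10.70 in vehicle cells at 6 h; with poly-A scaling its difference was 0.24 and was not called. Genes of autophagy and lysosomes were higher in 18 of 28 and lower in 1, by a median of 0.44 (−0.44 with poly-A scaling). With the probe sets of a gene averaged the median was 0.20, with 15 higher and 3 lower. Gabarapl1, which builds autophagosomes, was 4.79-fold higher, and Sqstm1, a receptor for tagged cargo, had 13.63 ± 0.12 in treated cells at 24 h and 11.65 ± 0.05 in vehicle cells at 6 h (SD, n = 3 each). Cd68, a lysosomal protein that also marks macrophages, was at least 2.04-fold higher, with 4.46, 5.63 and 5.00 in treated cells at 24 h. The leukocyte markers Ptprc, Csf1r and Itgam were at background in all 6 arrays.

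Immediate early genes, which answer growth and stress signals within minutes to hours, were higher in 25 of 31, by at least 2-fold in 20, and lower in 1. Their median was 1.44 against vehicle cells at 6 h and 1.29 against vehicle cells at 24 h, and 1.44 in treated against vehicle cells at 6 h. With poly-A scaling 13 were higher and 4 lower than in vehicle cells at 6 h, with a median of 0.56. Atf3, a stress-induced repressor of the ATF family, had 11.62, 11.17 and 11.44 in treated cells at 24 h, against 6.23, 5.78 and 6.38 in vehicle cells at 6 h, a difference of 5.28 ± 0.23 (SE; adjusted p = 1.24e-10, limma). The vehicle arrays at 24 h were not above them on average, at 6.03 ± 0.64 (SD, n = 3), and treated cells at 6 h had 12.36 ± 0.13. Fosl1, a FOS family partner in AP-1, had 8.99, 8.95 and 8.74 in treated cells at 24 h. Its vehicle arrays at 6 h were spread, at 3.90, 2.96 and 5.30, and all 3 at 24 h were at background. Fosb, another FOS protein, was at least 6.19-fold higher than in vehicle cells at 6 h. The AP-1 site TGANTCA lay in 0 of 22 promoters of these genes with a sequence, which draws on this window alone. It lay in 7.33% of all promoters and 4.59% of those of tested genes, so 0 of 22 does not show a lack of sites.

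Inflammatory genes were higher in 9 of 16 and lower in 2, by a median of 0.41 (−0.47 with poly-A scaling). Ccl2, a monocyte chemokine, had 7.46, 7.76 and 7.68 in treated cells at 24 h and was at background in vehicle cells at both times, at least 12.4-fold higher. Ccl7, a related chemokine, was at least 2.66-fold higher, with 5.41 ± 0.27 in treated cells at 24 h and 7.79 ± 0.27 in treated cells at 6 h (SD, n = 3 each). Gpr15lg, a ligand of the receptor GPR15, was at least 8.67-fold higher, with 7.12 ± 0.39 in treated cells at 24 h and 8.92 ± 0.21 at 6 h. Nfkbia, the inhibitor of NF-κB, was lower by −0.61 ± 0.08 (SE; adjusted p = 1.24e-05, limma).

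Several genes were at background in vehicle cells at both times and high in treated cells at 24 h. Sprr1a, a protein of the cornified envelope of stressed epithelia, had 9.67, 9.86 and 9.39, and was at least 49.9-fold higher than in vehicle cells at 6 h. Treated cells at 6 h were at background too, so its 24 h level stood out from all 3 other groups. Mmp12, the macrophage elastase, had 6.89, 7.67 and 7.09 (at least 9.29-fold), Stmn4, a tubulin-binding stathmin, 7.12, 7.98 and 7.25 (at least 10.96-fold), and Sdcbp2, a syntenin, 7.71, 7.83 and 7.41 (at least 12.5-fold). These 3 were at background in treated cells at 6 h as well. Cym, the protease chymosin, was at least 11.7-fold higher and Hist4h4, a histone H4 gene, at least 18.6-fold. Hist4h4 had 8.22 ± 0.44 in treated cells at 24 h and 7.04 ± 0.22 in treated cells at 6 h (SD, n = 3 each). Tubb3, a tubulin of neurons, was at least 3.99-fold higher, while Stmn1 was lower by −0.61, and 4 of 7 tubulins and stathmins were lower.

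**Figure D4:**
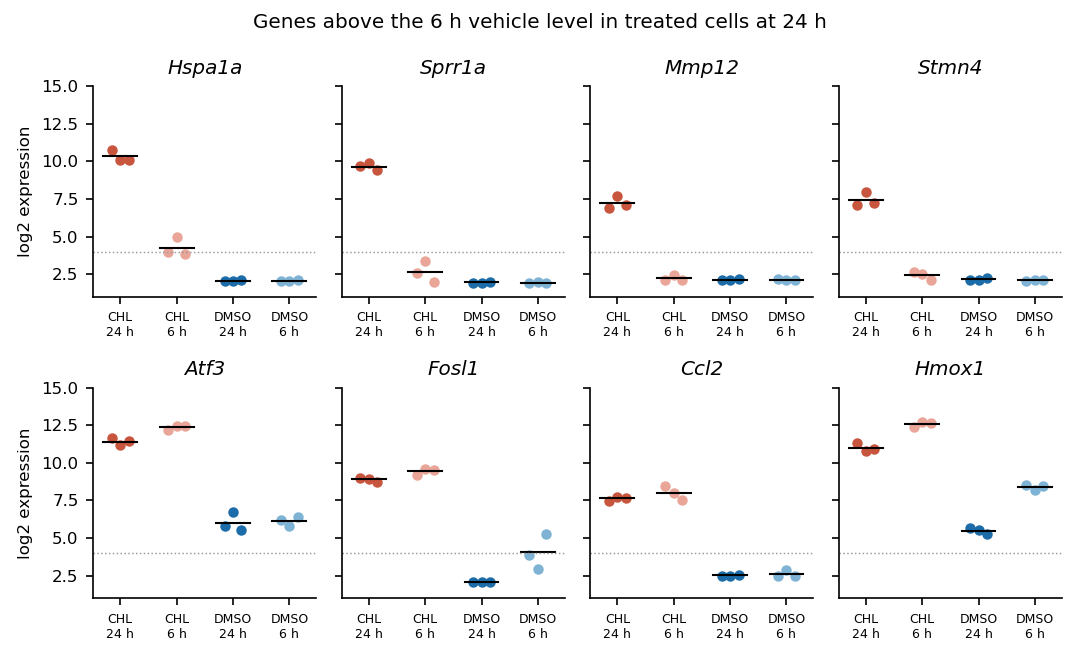
Log2 expression (vertical) of 8 genes in each array of chlorothalonil at 24 h, chlorothalonil at 6 h, DMSO at 24 h and DMSO at 6 h; bars are means of 3 arrays and the dotted line is the background limit of log2 4. Treated arrays at 24 h are above all DMSO arrays in every panel; treated arrays at 6 h are at background for Sprr1a, Mmp12 and Stmn4 and high for Atf3, Fosl1, Ccl2 and Hmox1.

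NRF2 targets were mixed. Of 28 tested, 17 were higher and 5 lower, with a median of 0.55 (−0.33 with poly-A scaling). TGACNNNGC, the antioxidant response element core, lay in 5 of 24 NRF2 target promoters (20.8%), against 12.17% of all promoters and 14.85% of those of tested genes. Of the other motifs searched, the sterol regulatory element TCACNCCAC lay in 0 of 16 cholesterol promoters, against 1.13% of all. TGATGNAA, the C/EBP-ATF response element, lay in 4 of 24 promoters of the ATF4 list (16.7%), against 3.82%. Hmox1, heme oxygenase, had 11.33, 10.75 and 10.95 in treated cells at 24 h, against 8.52, 8.20 and 8.45 in vehicle cells at 6 h, a difference of 2.62 ± 0.14 (SE; adjusted p = 8.16e-10, limma). Vehicle cells at 24 h had 5.66, 5.56 and 5.29, so treated and vehicle cells moved to opposite sides of the 6 h vehicle level. Mgst1, a microsomal glutathione transferase, was at least 3.26-fold higher, and vehicle cells at 24 h were also above their 6 h level, at 4.84 ± 0.76. Nqo1, a quinone reductase often used to read NRF2 activity, was lower by −0.76 ± 0.07, with 12.53 ± 0.09 in treated cells at 24 h, against 12.52 ± 0.03 in vehicle cells at 24 h and 13.29 ± 0.08 in those at 6 h. Slc7a11, the cystine transporter, had 7.23, 7.12 and 7.38 in treated cells at 24 h, against 8.34, 8.30 and 8.40 in vehicle cells at 6 h. It was between both vehicle times, since vehicle cells at 24 h had 4.85 ± 0.34.

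Genes called and at least 2-fold from the 6 h vehicle level in the direction opposite to the vehicle change numbered 5 among the vehicle-raised and 30 among the vehicle-lowered genes. The 5 became 8 without the second vehicle array at 6 h and 2 when the probe sets of a gene were averaged. Of the lowered genes, Ankrd1, a sarcomere and YAP-responsive protein, had 11.64, 11.95 and 11.66 in treated cells at 24 h, against 7.16, 7.10 and 7.97 in vehicle cells at 6 h and 5.50, 6.62 and 4.98 in vehicle cells at 24 h. The difference from vehicle cells at 6 h was 4.34 ± 0.31 (SE; adjusted p = 1.66e-08, limma). Ppp1r15a, the phosphatase subunit GADD34, had 11.24, 10.89 and 10.71 in treated cells at 24 h and 8.12, 7.59 and 8.35 in vehicle cells at 6 h, and 6.26 ± 0.42 in vehicle cells at 24 h. Of the raised genes, Myb, a factor of dividing progenitors, had 5.50, 5.38 and 5.27 in treated cells at 24 h, against 7.35, 6.68 and 7.37 in vehicle cells at 6 h. Gas6, a ligand of TAM receptors raised in growth arrest, was lower by −1.01 ± 0.09 (SE), while a second probe set of it differed by −0.06.

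Interferon-stimulated genes were higher in 17 of 21, by at least 2-fold in 15, and lower in 1, with a median of 1.504. With poly-A scaling 8 were higher and 4 lower, with a median of 0.62. Vehicle cells at 24 h had a median of 1.59 above their 6 h level, and 13 of the 21 were vehicle-raised by at least 2-fold. Mx2, an antiviral GTPase, had 7.33, 8.18 and 8.13 in treated cells at 24 h, and was at background in vehicle cells at 6 h, at least 14.8-fold higher. Vehicle cells at 24 h had 4.56, 4.84 and 4.68, below every treated array. Usp18, the ISG15 peptidase, was 10.2-fold higher, with 9.62 ± 0.35 in treated cells at 24 h, against 6.68 ± 0.04 in vehicle cells at 24 h and 6.26 ± 0.31 in those at 6 h (SD, n = 3 each). Isg15, an ubiquitin-like modifier, was 11.4-fold higher. Irf1, a factor of the interferon response, was lower by −0.60 ± 0.12 (SE). Genes of fatty acid oxidation were higher in 14 of 19 and lower in 1, with a median of 0.58 (−0.31 with poly-A scaling). The median in vehicle cells at 24 h against 6 h was 0.353. Against vehicle cells at 24 h, 8 were called higher and 7 lower in treated cells, with a median of 0.055. Acadvl, a mitochondrial acyl-CoA dehydrogenase, had 10.41, 10.49 and 10.38 in treated cells at 24 h, against 7.80, 7.86 and 7.96 in vehicle cells at 6 h, and was 5.88-fold higher. Its log2 level rose by 1.60 in vehicle cells between 6 h and 24 h, and treated cells at 24 h were above them by 0.96. Eci1, an enoyl-CoA isomerase, was 4.32-fold higher, and vehicle cells at 24 h were higher still, at 10.63 ± 0.13. Cpt1a, which carries acyl chains into mitochondria, was lower by −0.81 ± 0.06.

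The remaining lists are given beside the shares of all genes, of which 32.9% were higher, 29% lower and 47.1% within 1.5-fold. Of 44 oxidative phosphorylation subunits, 38 were within 1.5-fold, with 27 higher and 2 lower by a median of 0.18 (−0.70 with poly-A scaling). After median centring 17 were higher and 6 lower. Genes of the endoplasmic reticulum stress response were within 1.5-fold in 19 of 25, with 6 higher and 6 lower and a median of −0.04; 11 were lower after median centring. Glycolysis and hypoxia-responsive genes were within 1.5-fold in 17 of 25, and Gapdh, a glycolytic enzyme that chlorothalonil is known to bind, differed by 0.02 (95% interval −0.11 to 0.16). Collagens and other matrix genes were lower in 16 of 28 and higher in 5, with a median of −0.27, and Col12a1 was lower by −1.30 ± 0.14 (SE). YAP, SRF and TGF-beta responsive genes were lower in 14 of 25 and higher in 5, with a median of −0.22. Among metal transport genes 5 of 14 were lower and 2 higher. Slc30a1, the zinc exporter of the plasma membrane, was at background in treated cells at 24 h and had 6.07, 5.00 and 6.14 in vehicle cells at 6 h, at least 3.34-fold lower, and vehicle cells at 24 h were at background too. Circadian clock genes were higher in 7 of 14 and lower in 3 (median 0.32, −0.57 with poly-A scaling). p53 targets were higher in 8 of 17 and lower in 3, and the median of 0.04 had no settled value: it was −0.06 after median centring and −0.84 with poly-A scaling, but 0.24 with a filter at log2 6, 0.27 with probe sets averaged and 0.43 with unique probe sets only. Bbc3, the p53-induced death protein PUMA, was higher by 1.82 ± 0.12. Apoptosis regulators were higher in 5 and lower in 5 of 19, growth-arrest genes higher in 8 and lower in 3 of 15, kidney injury markers higher in 9 of 12 and xenobiotic genes higher in 7 and lower in 1 of 10. With poly-A scaling 0 genes of these 4 lists were called higher, and 12, 6, 3 and 3 were called lower. On the deposited scale their medians in vehicle cells at 24 h against 6 h were −0.25, 0.84, 0.03 and 0.72. Those of treated against vehicle cells at 24 h were 0.17, −0.59, 0.15 and −0.55. Epithelial junction and keratin genes were higher in 5 and lower in 1 of 9 (2 and 4 with poly-A scaling), and 3 of 7 proximal tubule genes were lower.

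**Figure D5:**
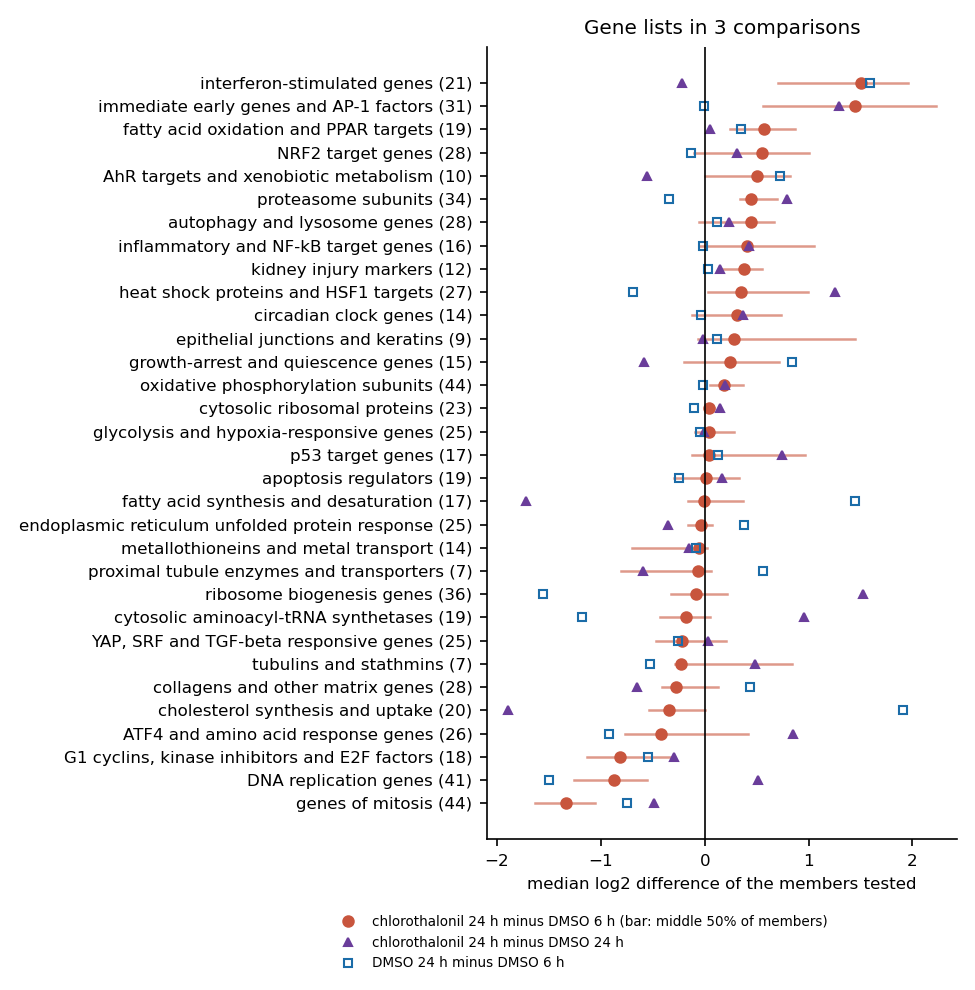
Median log2 difference (horizontal) of the tested members of each gene list, with the number tested in brackets, in chlorothalonil 24 h minus DMSO 6 h, chlorothalonil 24 h minus DMSO 24 h and DMSO 24 h minus DMSO 6 h, which share arrays; bars span the middle range of members, from the first to the third quartile, in the first. Ribosome biogenesis, cholesterol and fatty acid synthesis lists have first medians of −0.08, −0.34 and 0.00 beside vehicle medians of −1.55, 1.91 and 1.45; first medians between 0 and 0.88 turn negative with poly-A scaling.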

How the data were processed

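Expression was measured on Affymetrix rat arrays in 18 cultures, 6 groups of 3, with groups taken from the titles. The authors deposited a log2 table of 31099 probe sets. Per the submitters' processing notes GCRMA produced it, with settings that are not stated in these notes. Such values are normalized between arrays, so a shift common to most transcripts is taken out, and transcripts near background form a narrow low band. A probe set was kept when it had 1 gene symbol and log2 over 4 in at least 3 arrays, and a gene was its kept probe set with the highest mean, which gave 9149 genes.

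All 18 arrays entered 1 limma 3.58.1 model (R 4.3.3) with a mean per group, 12 residual degrees of freedom, two-sided tests and Benjamini-Hochberg adjustment over all genes at 0.05. The model was tested on simulated data. A group with all 3 arrays at or below log2 4 was taken as background, and folds against it are bounds from log2 4. Named genes were the 10 most changed each way, 5 per class against the vehicle change, up to 6 called and 2 level members of each list, and a fixed set, skipping genes without a curated name; Aen, Gas6 and others with several probe sets are read from 1. The members and lists were chosen with earlier results of these data known. Promoter sequences and gene names come from RefSeq GRCr8 tables. The number of arrays limits the precision. Alternatives were other filters, scalings, probe set rules, weights, a replicate block and leaving out each array.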

Additional observations from a re-analysis of the deposited data

Results flagged for a closer look

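The spiked poly-A control transcripts are outside the main measurement and were brighter in treated arrays at 24 h than in vehicle arrays at 6 h, by a mean log2 difference of 0.878. Their mean signal was 10.86 ± 0.30 in chlorothalonil arrays at 24 h and 9.98 ± 0.09 in DMSO arrays at 6 h (SD, n = 3 each), without overlap. The arrays of treated cells at 6 h had 10.60 ± 0.21 and those of vehicle cells at 24 h had 9.79 ± 0.71. The part of this difference in the results was not tested beyond the poly-A scaling.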

How the results depend on the processing

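After scaling each array to its poly-A controls, 277 genes were called higher and 5702 lower, with 189 at least 2-fold higher and 3469 at least 2-fold lower, since the scaling lowers every gene by a like amount. On that scale 0 genes were within 1.5-fold of vehicle cells at 6 h, among them 0 vehicle-raised and 0 vehicle-lowered genes. In the opposite direction 160 vehicle-raised and 9 vehicle-lowered genes were called, and 0 higher and 0 lower genes were among those that vehicle cells kept. The controls also vary within a group, with an SD of 0.30 in treated and 0.71 in vehicle arrays at 24 h. This spread widens every interval on that scale, so the counts of 0 do not show that gene levels differ. Of the 85 genes followed here, Cdkn1a changed sign there, with −0.45, 4 lost their call (Acss2, Fads2, Pmvk and Psmd3) and 16 that had no call were called lower. With a limit of 2-fold, 7035 genes were at the 6 h level, 496 of them vehicle-raised and 651 vehicle-lowered, and 224 higher and 150 lower genes were among those that vehicle cells kept. With no filter on low values 9153 genes were within 1.5-fold, because more genes near background were tested. Averaging probe sets left 2 vehicle-raised genes in the opposite direction. Leaving out 1 array at a time gave 4 to 8 such genes (8 without the second vehicle array at 6 h, for which the cause was not tested), 2783 to 3049 higher and 2424 to 2688 lower calls, and 3955 to 4384 genes within 1.5-fold. The other counts over all genes or vehicle classes stayed within 1.5 times under the alternatives not named here. Counts within single gene lists moved further: after median centring 17 oxidative phosphorylation subunits and 1 tRNA synthetase were higher and 11 endoplasmic reticulum stress genes lower, against 27, 3 and 6.

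Replicate numbers are shared across groups, but 36 of 45 correlations of same-numbered arrays were under 0.1, so the numbers were not taken to pair the samples. With the replicate number as a block, 5571 genes were called, against 5661 without it, with 2963 higher and 2608 lower, and none of the 85 genes changed its call.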
